A study of Mus musculus with 11 samples.

Results

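Pi16, Dpp4, Ly6a, Ly6c1, Cd34, Cd248, Dpt, Clec3b, Ebf2 and Has1 are 10 genes that mark the adventitial fibroblasts of the mouse lung. They were taken by gene symbol from a table of read counts for 24411 symbols, and all 10 were found and passed the filter on low counts that left 16011 genes for testing. The counts come from lung mesenchymal cells of C57BL6 mice, which flow cytometry had sorted for lacking EpCAM, CD45 and CD31, the surface proteins of epithelial, haematopoietic and endothelial cells. The mice had undergone PNX (pneumonectomy, in which lung tissue is surgically removed) or a sham operation without it. There were 3 libraries for PNX at day 7 and 3 for sham at day 7, then 3 for PNX at day 14 and 2 for sham at day 14. The labels give no genotype beyond the strain, no age and no unoperated group, so each day's comparison is with sham surgery. Whether each replicate was its own animal is not stated, so p-values here reflect the variation among libraries, some of which may be technical.

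Adventitial fibroblasts lie in the connective tissue cuffs around airways and larger vessels, apart from the alveolar fibroblasts of the gas exchange surface. Cells with high Pi16 and Dpp4 occur in the connective tissue of many mouse organs and have been described as a progenitor-like fibroblast state. Several of the 10 genes also serve elsewhere: Cd34, Ly6a and Ly6c1 are transcribed in endothelial cells, Ly6a and Ly6c1 in blood cells, and Has1 in mesothelium. In bulk libraries a lower level can mean fewer cells of a type or less RNA per cell, which cannot be told apart.

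Levels are given as CPM, a gene's share of all counts in its library, scaled by TMM factors (a correction for differences in library composition). Total counts were 2963341 to 7614122 for PNX and 4082935 to 8362119 for sham on day 7, then 4733716 to 7895688 for PNX and 2539628 to 9008592 for sham on day 14. The 7 mesenchymal markers Col1a1, Col1a2, Col3a1, Pdgfra, Pdgfrb, Dcn and Vim were detected in every library, with sums of 8909 to 26073 CPM. Of the genes of the sort gate, Epcam stood at 0.58 to 13.4 CPM, Ptprc (CD45) at 5.26 to 51.1 CPM and Pecam1 (CD31) at 11.05 to 247 CPM. The 13 epithelial markers summed to between 218 and 18416 CPM over the 11 libraries. Odorant and pheromone receptor genes, normally silent in lung mesenchyme, took 89.9 to 1606 CPM of the unscaled totals. The 3 highest libraries in this background were PNX day 7 replicate 2, replicate 2 of sham at day 7 and replicate 1 of sham at day 14.

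The 10 genes are protein coding and lie on 7 chromosomes of mm10 in the GENCODE M21 annotation. Pi16 is at chr17:29317680-29330593 and Has1 at chr17:17843323-17855205, Cd34 at chr1:194938819-194961279 and Dpt at chr1:164796644-164824266, and Ly6a at chr15:74994877-74998031 beside Ly6c1 at chr15:75044018-75048830. Dpp4 is at chr2:62330073-62412231, Cd248 at chr19:5068078-5070682, Clec3b at chr9:123150946-123157432 and Ebf2 at chr14:67233292-67430918. Pi16, Dpp4, Cd34, Dpt and Ebf2 overlap annotated genes on the opposite strand, and the strand setting of the counting is not given in the sources used here, so their counts may hold reads of those neighbours. Of the 50-base stretches in Ly6c1 transcripts, 36.7% also occur in transcripts of other genes, 31.7% in Ly6c2. For Ly6a the share is 10%, with 4.42% shared with Ly6c1, and for the other 8 genes it is 0. The counts of these Ly6 genes are therefore less certain. Ly6c2 itself reached at most 5.61 CPM. How reads that match both genes were counted is not known, so this value does not bound them.

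Start sites of 6 of the 10 genes were matched in RefSeq (GRCm38.p6) by symbol. The windows of Pi16, the gene that leads the set, of Dpp4 and Cd34, whose levels followed each other closely over the libraries, and of Ly6c1, which stood higher after PNX at day 7, are printed below. Each runs from 250 bases before to 50 bases after the start, 5′ to 3′ on the gene's strand, with motif matches in capitals. The windows are chr17:29318632-29318931 on the plus strand for Pi16, inside the gene's GENCODE span, chr2:62412182-62412481 on the minus strand for Dpp4, chr1:194938571-194938870 on the plus strand for Cd34 and chr15:75048788-75049087 on the minus strand for Ly6c1.
Pi16: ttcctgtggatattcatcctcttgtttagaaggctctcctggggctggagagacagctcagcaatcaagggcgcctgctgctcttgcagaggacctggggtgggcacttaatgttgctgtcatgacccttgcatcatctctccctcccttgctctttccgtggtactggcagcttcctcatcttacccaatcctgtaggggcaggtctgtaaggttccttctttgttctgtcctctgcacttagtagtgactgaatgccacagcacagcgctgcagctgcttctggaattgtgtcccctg
Dpp4: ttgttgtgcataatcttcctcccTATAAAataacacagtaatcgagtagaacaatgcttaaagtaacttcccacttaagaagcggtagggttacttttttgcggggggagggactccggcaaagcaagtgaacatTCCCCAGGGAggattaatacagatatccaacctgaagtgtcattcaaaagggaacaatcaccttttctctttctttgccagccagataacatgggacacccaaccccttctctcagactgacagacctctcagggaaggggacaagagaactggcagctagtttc
Cd34: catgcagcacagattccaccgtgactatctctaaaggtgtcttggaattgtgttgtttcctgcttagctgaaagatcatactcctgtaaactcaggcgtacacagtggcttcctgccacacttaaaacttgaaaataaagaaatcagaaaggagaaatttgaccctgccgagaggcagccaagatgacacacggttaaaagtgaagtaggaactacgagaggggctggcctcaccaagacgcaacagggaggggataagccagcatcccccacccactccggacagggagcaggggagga
Ly6c1: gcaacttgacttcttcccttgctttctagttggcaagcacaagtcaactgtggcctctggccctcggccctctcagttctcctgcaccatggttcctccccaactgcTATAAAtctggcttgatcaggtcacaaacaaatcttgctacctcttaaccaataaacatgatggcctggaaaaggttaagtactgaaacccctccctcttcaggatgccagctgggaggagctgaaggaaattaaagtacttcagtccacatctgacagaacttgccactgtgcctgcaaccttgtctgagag
Searched on both strands were the EBF motif TCCC and GGGA parted by any 2 bases (for the factor family of Ebf2), the AP-1 motif TGANTCA and the TATA box TATAAA. The EBF motif occurred in Dpp4, with its first base at -115 from the start, and in 0.904% of 32851 RefSeq windows of the same length. The TATA box occurred in Dpp4 at -227, in Dpt at 12 and in 1 of 2 Ly6c1 windows at -143 from the start. It occurred in 13.6% of all windows. No match to the AP-1 motif lay in the 7 windows of the 6 genes, against 7.81% of all windows. The matches do not overlap each other, and a match in letters is not a binding site.

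Per kilobase of exon, with all annotated exons of a gene merged, the median level over the 11 libraries was highest for Dpt at 1201 CPM per kb. Dpt encodes dermatopontin, a small matrix protein that binds decorin and collagen. Clec3b followed at 447, Ly6a at 248, Has1 at 197, Pi16 at 164 and Cd34 at 102 CPM per kb. Ly6c1 stood at 62.0, Cd248 at 18.2, Dpp4 at 14.0 and Ebf2 at 5.77 CPM per kb. Ebf2, a transcription factor gene of mesenchymal progenitors, was the lowest of the 10 on this scale. The merged length can exceed that of the longest coding transcript. It was 4518 against 2095 bases for Has1, 7290 against 2554 for Cd34 and 6364 against 3994 for Pi16. For Dpt, Clec3b and Cd248 the lengths were equal. The order of the genes therefore depends on the length used.

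**Figure D1:**
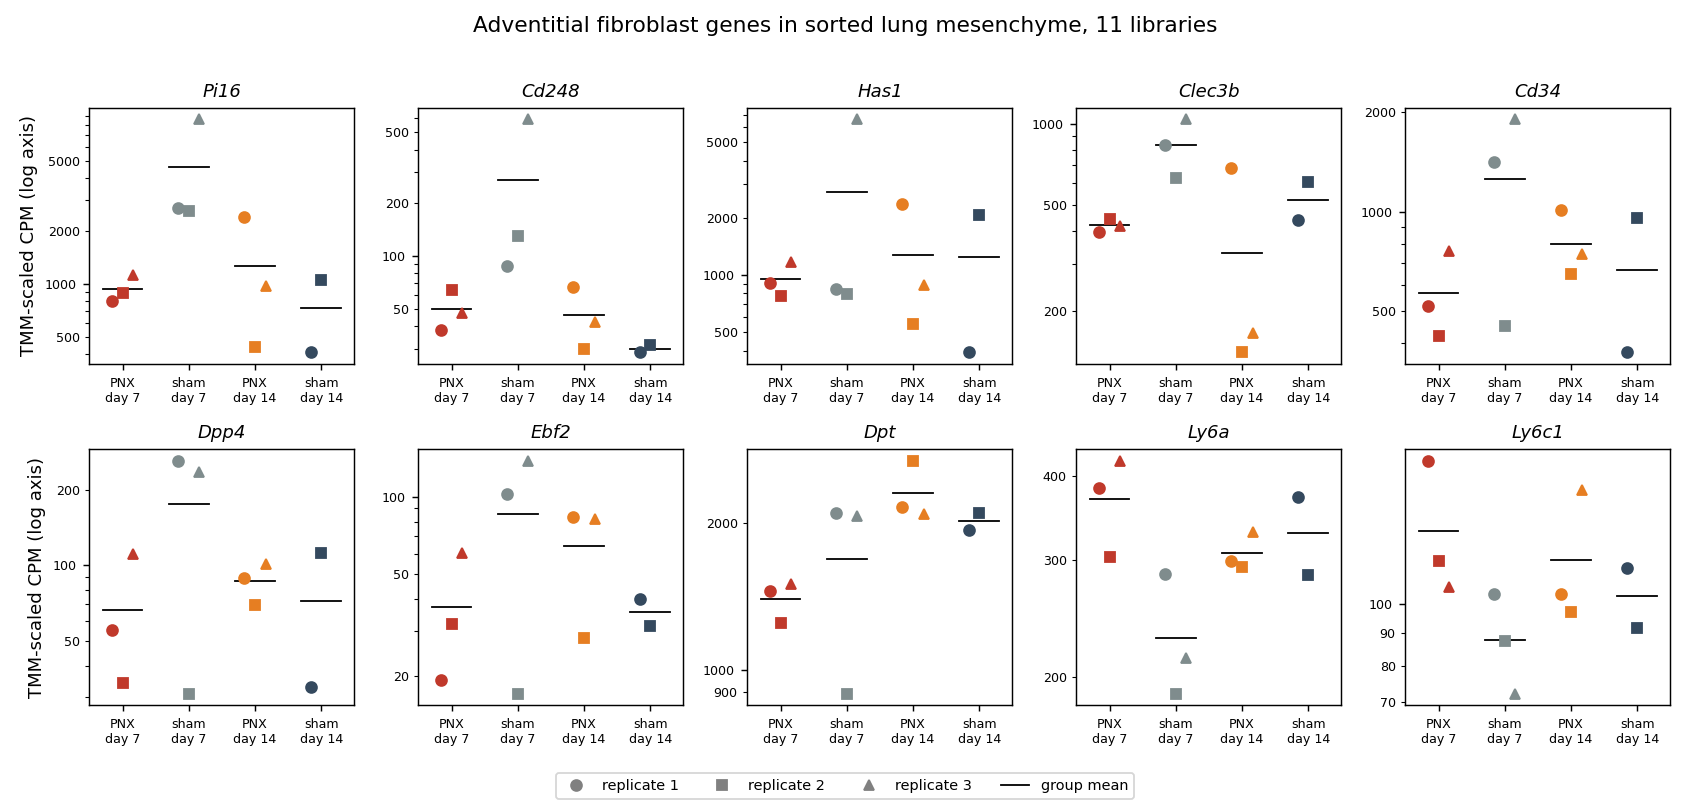
Level of each of the 10 genes in every library, in CPM scaled by TMM factors on a log axis, by surgery and day; circles, squares and triangles are replicates 1, 2 and 3 and the line is the group mean. Pi16, Cd248 and Clec3b show all 3 PNX libraries of day 7 below all 3 sham libraries of day 7, with sham day 7 replicate 3 at the top.

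The first comparison set PNX against sham at day 7, to see how the 10 genes stood early after surgery. Pi16 encodes peptidase inhibitor 16, a protein with a CAP domain. Its level was 798, 887 and 1123 CPM in PNX libraries, against 2691, 2603 and 8569 CPM in sham libraries. All 3 PNX libraries lay below all 3 sham libraries, and sham replicate 3 stood far above the other two. The means were 936 ± 168 CPM in PNX and 4621 ± 3419 CPM in sham (SD, n = 3 each), a log2 fold change of -2.30 ± 0.61 (SE), or 4.94-fold lower. It did not pass the threshold of 0.05 (adjusted p = 0.12, edgeR quasi-likelihood test with Benjamini-Hochberg adjustment over all genes tested; unadjusted p = 0.00163). Without sham day 7 replicate 3 the log2 fold change of Pi16 was -1.50 ± 0.56 (edgeR adjusted p = 0.69), and without sham day 7 replicate 1 it was -2.58 (edgeR adjusted p = 0.0493). With DESeq2 it was -2.30 (adjusted p = 0.00252), and over 19 alternatives the adjusted p ran from 0.00252 to 0.69.

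Cd248 encodes endosialin, a C-type lectin-like surface protein of fibroblasts and pericytes. It was at 38.4, 64.0 and 47.4 CPM in PNX libraries of day 7, against 87.6, 129 and 591 CPM in sham libraries. Again the groups did not overlap, and sham replicate 3 was the highest library. The means were 49.9 ± 12.96 CPM in PNX and 269 ± 280 CPM in sham, and the log2 fold change of -2.43 ± 0.59 was the largest of the 10 genes in size at this day (edgeR adjusted p = 0.105). Without sham day 7 replicate 3 it was -1.12 ± 0.38 (edgeR adjusted p = 0.567), and without sham day 7 replicate 1 it was -2.85 (edgeR adjusted p = 0.00877). The adjusted p ran from 0.00117 with DESeq2 to 0.567 over the alternatives.

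Clec3b encodes tetranectin, a secreted lectin that binds plasminogen. It stood at 397, 443 and 417 CPM in PNX libraries of day 7, against 833, 626 and 1036 CPM in sham libraries. The groups did not overlap, and here the PNX libraries lay close together, with an SD of 23.2 CPM about a mean of 419 CPM, against 205 about 832 CPM in sham. The log2 fold change was -0.99 ± 0.48 (edgeR adjusted p = 0.411).

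Cd34, a sialomucin of stromal progenitors and endothelium, stood at 518, 421 and 760.5 CPM in PNX libraries, against 1416, 452 and 1897 CPM in sham libraries. Dpp4, a surface peptidase, stood at 55.2, 34.1 and 111 CPM in PNX, against 259.7, 30.9 and 235 CPM in sham. Both had sham replicate 2 inside the PNX range or below it, so the groups overlapped. The log2 fold changes were -1.15 ± 0.48 for Cd34 (edgeR adjusted p = 0.313) and -1.39 ± 0.70 for Dpp4 (edgeR adjusted p = 0.449). Without sham day 7 replicate 2, a library of high receptor background and the highest epithelial marker sum of day 7 (13461 CPM), they were -1.59 ± 0.44 and -1.92 ± 0.49 (edgeR adjusted p = 0.111 and 0.107). With the receptor background as a covariate they were nearer to 0, at -0.54 ± 0.39 for Cd34 and -0.55 ± 0.55 for Dpp4 (edgeR adjusted p = 0.606 and 0.727). Cd34 was at -0.72 ± 0.50 without sham day 7 replicate 3 (edgeR adjusted p = 0.995). Over the alternatives the log2 fold change at day 7 ran from -1.59 to -0.54 for Cd34 and from -2.01 to -0.55 for Dpp4. Ebf2 was at 19.2, 31.8 and 60.1 CPM in PNX, against 103, 17.0 and 138 CPM in sham, with sham replicate 2 below every PNX library (-1.21 ± 0.66, edgeR adjusted p = 0.499). Its log2 fold change was -1.73 without sham day 7 replicate 2 (edgeR adjusted p = 0.111) and -0.69 without sham day 7 replicate 3 (edgeR adjusted p = 1).

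Has1, a hyaluronan synthase, was at 912, 779 and 1165 CPM in PNX libraries of day 7, against 846, 790.1 and 6599 CPM in sham libraries. Without sham replicate 3 the groups lay together: the log2 fold change of -1.53 ± 0.92 (edgeR adjusted p = 0.572) became 0.22 ± 0.63 (edgeR adjusted p = 1). With the background covariate it was -0.39 ± 0.96 (edgeR adjusted p = 0.915). Dpt was at 1450.0, 1248 and 1503 CPM in PNX, against 2097, 892 and 2070.1 CPM in sham, and its groups overlapped (-0.27 ± 0.37, edgeR adjusted p = 0.818). Over the alternatives Dpt ran from -0.61 without sham day 7 replicate 2 to -0.022 with the background covariate. The 8 mesothelial markers, all detected in every library of day 7, summed to 1070 to 2838 CPM in PNX and to 2788, 843 and 3729 CPM in sham. Sham replicate 3, which held the most Pi16, Cd248 and Has1, thus also had the highest mesothelial sum, and it had the lowest epithelial sum of day 7 (218 CPM). The part of these markers in the results was not tested.

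Both Ly6 genes stood higher after PNX. Ly6a encodes Sca-1, a membrane-anchored marker of progenitors and endothelium, and was at 384, 303 and 422 CPM in PNX libraries of day 7, against 285, 189 and 214 CPM in sham libraries. Ly6c1 encodes a related protein and was at 169, 117 and 107 CPM in PNX, against 104, 87.6 and 72.2 CPM in sham. For each, every PNX library lay above every sham library, by a narrow gap, and neither passed the threshold. The log2 fold changes were 0.69 ± 0.31 for Ly6a (edgeR adjusted p = 0.369, unadjusted p = 0.0411) and 0.57 ± 0.32 for Ly6c1 (edgeR adjusted p = 0.495). The 15 endothelial markers, all detected in every library of day 7, summed to 1711, 756 and 196 CPM in PNX and to 340, 1203 and 317 CPM in sham. PNX replicate 1, with the highest Ly6c1, had the highest of these 6 sums, and PNX replicate 3, with the highest Ly6a, had the lowest. Without PNX day 7 replicate 1 the log2 fold change of Ly6c1 was 0.30 ± 0.38 (edgeR adjusted p = 0.932). The part of endothelial RNA in these values was not tested.

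Over the 10 genes at day 7, 8 were lower and 2 higher after PNX, where 48.3% of all genes had a log2 fold change below 0 and 51.7% above it. Of the 10, 0 passed the threshold with edgeR, where 0.0375% of all genes passed. With DESeq2, and with edgeR without the filter on low counts or without sham day 7 replicate 1, 2 passed as lower, Pi16 and Cd248. Those settings also called more of all genes, 434, 178 and 425, against 6 in the main setting. At an unadjusted p under 0.05, 3 were lower and 1 higher, against 8.07% and 4.66% of all genes. Groups did not overlap for 3 lower genes (Pi16, Cd248 and Clec3b; 9.57% of all genes) and for 2 higher genes (Ly6a and Ly6c1; 9.95% of all genes). The median log2 fold change was -1.18, beside 0.03 over all genes, with an interquartile range of -0.41 to 0.51. The median of the 10 was -0.71 without sham day 7 replicate 3 and -0.55 with the background covariate. Over the main setting and 19 alternatives, 9 of the 10 genes kept their direction at day 7, all but Has1.

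**Figure D2:**
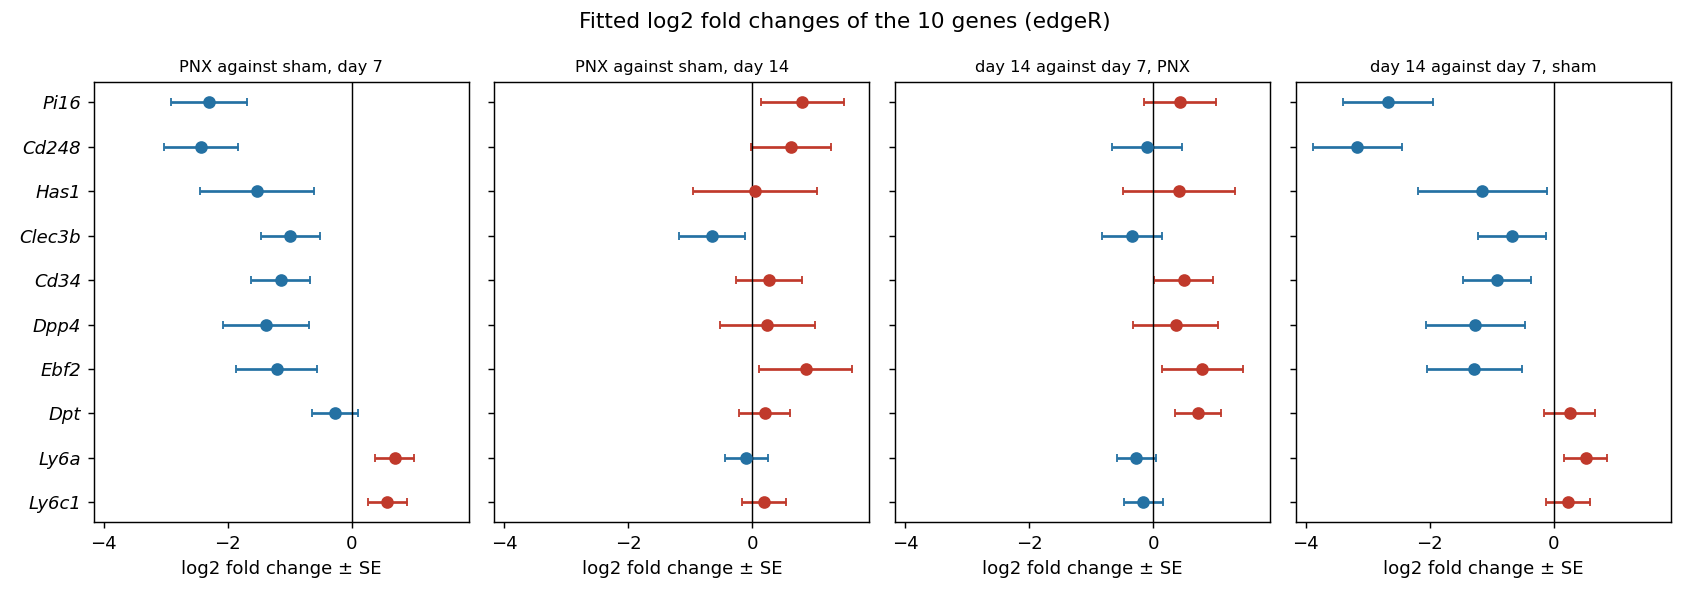
Log2 fold changes with standard errors from edgeR for the 10 genes, for PNX over sham at day 7 and day 14 and for day 14 over day 7 after PNX and after sham. At day 7 the values run from -2.43 for Cd248 to 0.69 for Ly6a, and at day 14 from -0.66 for Clec3b to 0.86 for Ebf2.

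At day 14 the same comparison rested on 3 PNX and 2 sham libraries. Pi16 was at 2394, 437 and 977 CPM in PNX, against 408 and 1046 CPM in sham. The highest library was now a PNX one, replicate 1, and the groups overlapped. The log2 fold change was 0.80 ± 0.67 (edgeR adjusted p = 0.831), -0.04 without PNX day 14 replicate 1, 0.27 without sham day 14 replicate 1 and 0.30 without the 3 libraries of highest background. Cd248 was at 67.0, 29.8 and 42.3 CPM in PNX, against 28.6 and 31.3 CPM in sham (0.63 ± 0.65, edgeR adjusted p = 0.862), with a log2 fold change of 0.28 without PNX day 14 replicate 1. Has1 was at 2375, 554 and 888 CPM in PNX, against 391.7 and 2084 CPM in sham, so each group held a high library (0.04 ± 1.00, edgeR adjusted p = 0.995).

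Clec3b was at 686, 141 and 166 CPM in PNX libraries of day 14, against 438 and 606 CPM in sham libraries. PNX replicates 2 and 3 lay below both sham libraries and replicate 1 above them, with a log2 fold change of -0.66 ± 0.53 (edgeR adjusted p = 0.831). Without PNX day 14 replicate 1 it was -1.75 ± 0.43 (edgeR adjusted p = 0.176), and without PNX day 14 replicate 2 or 3 or sham day 14 replicate 2 it was -0.30, -0.33 and -0.28. Cd34 was at 1009, 646 and 742 CPM in PNX, against 376 and 956 CPM in sham, and Dpp4 at 88.8, 69.4 and 101 CPM in PNX, against 32.9 and 112 CPM in sham. Of both genes, 1 sham library was the lowest of the 5 libraries, replicate 1. The highest was PNX replicate 1 for Cd34 and sham replicate 2 for Dpp4. Ebf2 was at 83.6, 28.1 and 81.8 CPM in PNX, against 40.0 and 31.2 CPM in sham, and had the largest positive log2 fold change of the 10 (0.86 ± 0.75, edgeR adjusted p = 0.839). Dpt, at 2160.4, 2688 and 2091 CPM in PNX against 1941 and 2099 CPM in sham, varied little. Ly6a was at 298, 293 and 329 CPM in PNX against 373 and 284 CPM in sham, and Ly6c1 at 104, 97.3 and 152 CPM against 114 and 91.9 CPM.

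At day 14, 8 of the 10 were higher and 2 lower after PNX, beside 45.1% and 54.8% of all genes. With edgeR 0 passed the threshold (0.00625% of all genes), 0 had an unadjusted p under 0.05 (3.63% of all genes as lower and 3.19% as higher) and 0 had groups that did not overlap, against 8.28% of all genes as lower and 9.57% as higher. DESeq2 called 0 of the 10 too. The median was 0.22, beside -0.07 over all genes. Sham day 14 replicate 1 was low in Pi16, Cd34, Cd248 and Has1, the lowest of all 11 libraries in each, and also lowest in the sums of mesothelial (633 CPM) and mesenchymal markers (8909 CPM). The 19 haematopoietic markers summed to 747, 521 and 321 CPM in PNX and to 915 and 733 CPM in sham. By gene, all 19 were lower after PNX at day 14, with a median log2 fold change of -2.48. With edgeR 0 of them passed, and 13 had an unadjusted p under 0.05 as lower (3.63% of all genes). DESeq2 called 7 of them as lower, among 108 of all genes. The part of these markers in the results was not tested. Without sham day 14 replicate 2, the log2 fold changes were 1.77 for Pi16, 1.83 for Has1, 1.54 for Dpp4 and 1.23 for Cd34. The single sham library left is then assumed to vary like the other groups.

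In the mean of both days, 8 of the 10 were lower and 2 higher after PNX, beside 53.4% and 46.6% of all genes. With edgeR 0 passed (0.194% of all genes), and 0 with DESeq2. At an unadjusted p under 0.05, 2 were lower and 0 higher, against 6.37% and 3.92% of all genes. These were Cd248 (-0.90 ± 0.42, edgeR adjusted p = 0.485) and Clec3b (-0.82 ± 0.36, edgeR adjusted p = 0.43). The value of Cd248 was -0.25 ± 0.28 without sham day 7 replicate 3 (edgeR adjusted p = 0.954). Of the 8 genes with a negative log2 fold change at day 7, Clec3b alone also had a negative value at day 14. Without PNX day 14 replicate 1 its log2 fold change in the mean of both days was -1.38 and passed, among 74 of all genes (edgeR adjusted p = 0.0376; 0.0376 to 0.763 over the alternatives).

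The interaction, the log2 fold change at day 14 minus that at day 7, was above 0 for 8 of the 10 genes and below 0 for 2, beside 49.5% and 50.5% of all genes. It was 3.11 ± 0.91 for Pi16 and 3.06 ± 0.88 for Cd248, each at an unadjusted p of 0.0036 and an edgeR adjusted p of 0.351. With edgeR 0 of the 10 and 0% of all genes passed, while 2 of the 10 had an unadjusted p under 0.05 as higher (4.16% of all genes) and 0 as lower (4.6%). DESeq2 called both, among 93 of all genes, at adjusted p = 0.0272 for Pi16 and 0.0354 for Cd248, and the adjusted p of each reached 1 over the alternatives. Without sham day 7 replicate 3 the interaction of Cd248 was 1.75. The median over the 10 genes was 1.49, beside -0.01 over all genes. It was 0.64 without sham day 7 replicate 3 and 0.80 with the background covariate. Leaving out PNX day 14 replicate 1 gave 0.99.

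Between days after PNX, 6 of the 10 were higher and 4 lower at day 14 than at day 7, beside 45.9% and 54.1% of all genes, and 0 passed with edgeR or DESeq2 (0% of all genes with edgeR). At an unadjusted p under 0.05 there were 0 as well, against 3.72% of all genes as higher and 3.13% as lower. Dpt had groups that did not overlap, at 2313 ± 326 CPM at day 14 and 1400.4 ± 135 CPM at day 7 (SD, n = 3 each), a log2 fold change of 0.72 ± 0.37 (edgeR adjusted p = 0.751). It was the only one of the 10, where 9.02% of all genes were higher and 9.08% lower without overlap. Pi16 averaged 1269 ± 1011 CPM at day 14 and 936 ± 168 CPM at day 7 after PNX (0.44 ± 0.58, edgeR adjusted p = 0.85).

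Between days after sham, 7 of the 10 were lower and 3 higher at day 14, beside 47.5% and 52.5% of all genes. Pi16 averaged 727 ± 451 CPM at day 14 (SD, n = 2) and 4621 ± 3419 CPM at day 7 (SD, n = 3), a log2 fold change of -2.67 ± 0.73 (edgeR adjusted p = 0.117). Cd248 averaged 30.0 ± 1.98 CPM at day 14 and 269 ± 280 CPM at day 7 (-3.17 ± 0.72, edgeR adjusted p = 0.0975). Both had groups that did not overlap, as did Clec3b (-0.67 ± 0.55, edgeR adjusted p = 0.632), where 11.8% of all genes were lower and 12.5% higher without overlap. With edgeR 0 of the 10 passed (0.0187% of all genes) and 2 had an unadjusted p under 0.05, both lower (7.94% of all genes, and 6.32% higher). DESeq2 called Pi16 (adjusted p = 0.00211) and Cd248 (adjusted p = 0.00013), among 641 of all genes. Without sham day 7 replicate 1, both passed with edgeR (adjusted p = 0.0491 for Pi16 and 0.0101 for Cd248), among 545 of all genes. Without sham day 7 replicate 3, the log2 fold changes were -1.87 and -1.85. Over the alternatives the adjusted p ran from 0.00211 to 0.787 for Pi16 and from 0.00013 to 0.738 for Cd248. This comparison shares the 3 sham libraries of day 7 with that of PNX against sham at day 7, so the low values in both are not separate observations.

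The 10 genes varied by different amounts over the 11 libraries. Pi16 spanned a 21.0-fold range, Cd248 20.7-fold and Has1 16.8-fold, while Dpt spanned 3.01-fold, Ly6c1 2.33-fold and Ly6a 2.23-fold. The SD of log2 CPM was 1.29 for Pi16, 1.27 for Cd248 and 1.13 for Has1, against a median of 0.62 over all genes. That of Ly6a and Ly6c1 was 0.34 each. Sham day 7 replicate 3 was the highest library for 6 genes: Pi16, Cd34, Cd248, Clec3b, Ebf2 and Has1. Sham day 14 replicate 1 was the lowest for 4 of these, Pi16, Cd34, Cd248 and Has1.

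Likeness between genes was measured as the root mean square difference of log2 CPM over the 11 libraries, each gene centred on its own mean, so that 0 means the same profile. The closest pair of the 10 was Ly6a and Ly6c1 at 0.25, then Dpp4 and Cd34 at 0.39 and Pi16 and Cd248 at 0.49. Pi16 and Ly6a were the farthest pair, at 1.47. These Ly6 genes also had the smallest SDs of the 10 and share some transcript sequence. Among 9713 genes with a mean log2 CPM of at least 3, the nearest to Pi16 were Anpep (0.30), which encodes aminopeptidase N, the Wnt receptor gene Fzd4 (0.42), Ezh1 (0.43), the protease gene Htra3 (0.43), Galnt15 (0.43), Csf1 (0.43), Arhgap20 (0.46) and Cpt1c (0.47). The median distance from Pi16 was 1.25. Cd248 ranked 10 in that order, Has1 364, Clec3b 570, Cd34 739, Dpp4 2239, Ebf2 2375, Dpt 6258, Ly6c1 7327 and Ly6a 7602. Since these genes were picked for following Pi16, their own differences are a description. Anpep averaged 29.9 ± 11.3 CPM in PNX and 182 ± 193 CPM in sham at day 7 (SD, n = 3 each). Csf1, the macrophage growth factor gene, averaged 72.3 ± 7.11 CPM in PNX and 257 ± 149 CPM in sham at day 7.

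**Figure D3:**
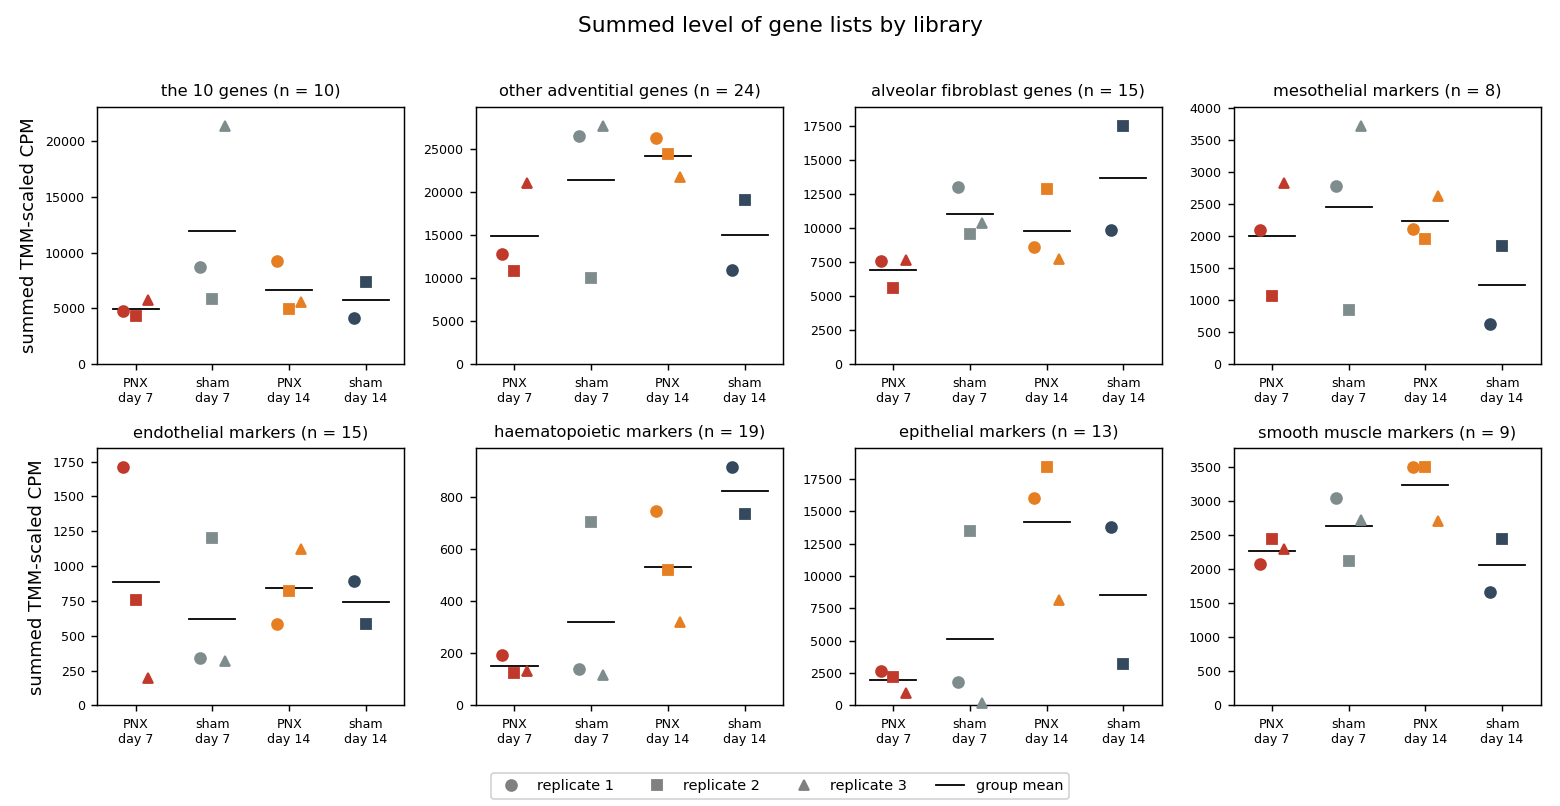
Summed CPM per library, scaled by TMM factors, for the 10 genes, for other fibroblast gene lists and for marker lists of other cell types, by surgery and day. The 10 genes sum to 4328 to 5716 CPM in PNX at day 7 and to 5817 to 21421 CPM in sham at day 7, while epithelial marker sums run from 218 to 18416 CPM over all libraries.

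A list of 24 other genes used as markers of adventitial fibroblasts, all of them tested, gave a context for the 10. It was chosen with earlier results of these data known, so its counts are a description. At day 7, 19 of the 24 were lower and 5 higher after PNX, beside 48.3% and 51.7% of all genes. With edgeR 0 passed. With DESeq2 3 did as lower, where 434 of all 23040 genes fitted passed in either direction. At an unadjusted p under 0.05, 12 were lower and 0 higher, against 8.07% and 4.66% of all genes (median log2 fold change -0.91, beside 0.03 over all genes). The genes named next were picked for the smallest p of the list at day 7, so their differences are a description. Pcolce2, an enhancer of procollagen processing, averaged 235 ± 10.7 CPM in PNX and 516 ± 56.6 CPM in sham, without overlap (-1.14 ± 0.31, edgeR adjusted p = 0.123). Efhd1 averaged 6.86 CPM in PNX and 32.1 CPM in sham (-2.21 ± 0.55, edgeR adjusted p = 0.103). The ectonucleotidase gene Entpd2 averaged 42.3 CPM in PNX and 113 CPM in sham (-1.42 ± 0.40, edgeR adjusted p = 0.138). The scavenger receptor gene Scara5, which ranked 14 in likeness to Pi16, averaged 123 CPM in PNX and 333 CPM in sham (-1.43 ± 0.47, edgeR adjusted p = 0.189).

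At day 14, 18 of these 24 were higher and 6 lower after PNX, beside 45.1% and 54.8% of all genes. With edgeR or DESeq2 0 passed, and 3 had an unadjusted p under 0.05 as higher, against 3.19% of all genes (median 0.78, beside -0.07 over all genes). Again the genes named were picked for the smallest p of the list, here at day 14. Mfap5, a protein of elastic microfibrils, averaged 2234 ± 30.3 CPM in PNX and 1209 ± 203 CPM in sham, without overlap (0.89 ± 0.42, edgeR adjusted p = 0.728). The chemokine scavenger Ackr3 averaged 74.1 CPM in PNX and 30.6 CPM in sham (1.27 ± 0.49, edgeR adjusted p = 0.617), Igfbp5 had a log2 fold change of 1.12 ± 0.49 (edgeR adjusted p = 0.701) and the collagen gene Col15a1 averaged 83.0 CPM in PNX and 34.7 CPM in sham (1.26 ± 0.59, edgeR adjusted p = 0.728). The interaction was above 0 for all 24 (49.5% of all genes), with 9 at an unadjusted p under 0.05 (4.16% of all genes as higher), 0 past the threshold with edgeR and 1 with DESeq2, among 93 of all genes (median 1.35, beside -0.01 over all genes). The 10 genes and this list thus had medians of the same sign in both days and in the interaction, in libraries and comparisons that they share. That sign was not particular to adventitial genes. The median interaction was also above 0 for mesothelial (1.315), smooth muscle (0.783), mesenchymal (0.687) and pericyte markers (0.042). It was below 0 for haematopoietic (-1.976), endothelial (-0.516) and epithelial markers (-0.153). The 24 genes were not followed with libraries left out. At day 7 they summed to 12822, 10772 and 21109 CPM in PNX and to 26484, 10025 and 27732 CPM in sham. At day 14 the sums were 26231, 24455 and 21755 CPM in PNX and 10907 and 19124 CPM in sham.

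Alveolar fibroblast genes were set beside them. Their list, too, was chosen with earlier results of these data known. Its genes named here were picked for a small p, so their differences are a description. Of 15 tested, 14 were lower and 1 higher after PNX at day 7 (median -0.89), beside 48.3% and 51.7% of all genes (median 0.03). At day 14, 14 were lower and 1 higher (median -0.76), beside 54.8% and 45.1% of all genes (median -0.07). With edgeR 0 of the 15 passed the threshold at either day, against 0.0375% and 0.00625% of all genes. At an unadjusted p under 0.05, 8 were lower at day 7 and 6 at day 14, against 8.07% and 3.63% of all genes. DESeq2 called 3 and 2 as lower, among 434 and 108 of all genes. Slc7a10, an amino acid transporter gene, averaged 11.01 CPM in PNX and 36.1 CPM in sham at day 7 (-1.72 ± 0.35, edgeR adjusted p = 0.0702) and 9.43 CPM in PNX and 36.6 CPM in sham at day 14 (-1.96 ± 0.38, edgeR adjusted p = 0.0734). In the mean of both days 2 of the 15 passed as lower (0.194% of all genes in either direction), Slc7a10 (-1.83 ± 0.26, edgeR adjusted p = 0.00546) and the growth factor receptor gene Fgfr4 (-1.92 ± 0.33, edgeR adjusted p = 0.0137), where 0 of the 10 adventitial genes did. The median interaction was -0.12 for the alveolar genes and 1.49 for the 10 genes, or 0.64 for the 10 without sham day 7 replicate 3. The alveolar median was not computed without that library. Slc7a10 and Fgfr4 were not followed with any library left out. In the mean of both days, 11 of the 15 had an unadjusted p under 0.05 as lower with edgeR and 0 as higher. Of all genes, 6.37% and 3.92% did. DESeq2 called 7 of the 15 as lower in that mean, where it also called more of all genes than edgeR, as given below. The difference between the lists was not tested.

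Relatives of the 10 genes were followed by family. They were named for a high level or a small p, so their differences are a description. Crispld2, which like Pi16 encodes a secreted CAP protein, averaged 317 ± 25.3 CPM in PNX and 665 ± 81.8 CPM in sham at day 7, without overlap (-1.07 ± 0.38, edgeR adjusted p = 0.226), and Pi15, another CAP gene, 151 CPM in PNX and 86.5 CPM in sham at day 14 (0.80 ± 0.39, edgeR adjusted p = 0.742). Ebf1, the early B cell factor gene related to Ebf2, had log2 fold changes of -1.21 ± 0.48 at day 7 (edgeR adjusted p = 0.283) and 1.38 ± 0.56 at day 14 (edgeR adjusted p = 0.665), and an interaction of 2.59 ± 0.74 (edgeR adjusted p = 0.349). Ebf2 had the same signs at both days. Ly6e, a relative of Ly6a, averaged 668 ± 265 CPM in PNX and 413 ± 21.7 CPM in sham at day 7 (0.69 ± 0.36, edgeR adjusted p = 0.452). The Ly6 family was mixed: of 10 tested at day 7, Ly6a and Ly6c1 included, 6 were higher and 4 lower. At an unadjusted p under 0.05 with edgeR, 2 were higher and 2 lower, against 4.66% and 8.07% of all genes. Thbd, the thrombomodulin gene and a relative of Cd248, averaged 1317 CPM in PNX and 644 CPM in sham at day 14, without overlap (1.03 ± 0.47, edgeR adjusted p = 0.706). Podxl2, a relative of Cd34, had a log2 fold change of -2.21 ± 0.60 at day 7 (edgeR adjusted p = 0.122). Of the 3 genes of that family tested, Cd34 included, 2 were lower and 1 higher at day 7. Beside them, 48.3% of all genes were lower and 51.7% higher.

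Hyaluronan genes, which make, bind or cut the polymer that Has1 makes, were followed as a list. The list was chosen with earlier results of these data known. Of the 15 tested at day 7, Has1 included, 9 were higher and 6 lower after PNX, beside 51.7% and 48.3% of all genes. With edgeR or DESeq2 0 passed, and 4 had an unadjusted p under 0.05 as higher, against 4.66% of all genes (median 0.77, beside 0.03 over all genes). Cd44, Vcan, Tmem2 and Hmmr were picked for a small p in the list, so their differences are a description. Cd44, the main hyaluronan receptor, averaged 239 CPM in PNX and 139 CPM in sham, without overlap (0.78 ± 0.33, edgeR adjusted p = 0.332). Vcan, a proteoglycan that binds hyaluronan, averaged 129 CPM in PNX and 75.5 CPM in sham at day 7 (0.77 ± 0.35, edgeR adjusted p = 0.362), and 128 CPM in PNX and 71.4 CPM in sham at day 14 (0.84 ± 0.39, edgeR adjusted p = 0.728). Tmem2, a surface hyaluronidase gene, had a log2 fold change of 1.56 ± 0.54 at day 7 (edgeR adjusted p = 0.226), and Hmmr, a hyaluronan-binding protein gene that is also transcribed in dividing cells, one of 2.06 ± 0.73 (edgeR adjusted p = 0.224). Has2, a second synthase, averaged 10.5 ± 7.93 CPM in PNX and 5.62 ± 2.30 CPM in sham at day 7, with overlap.

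**Figure D4:**
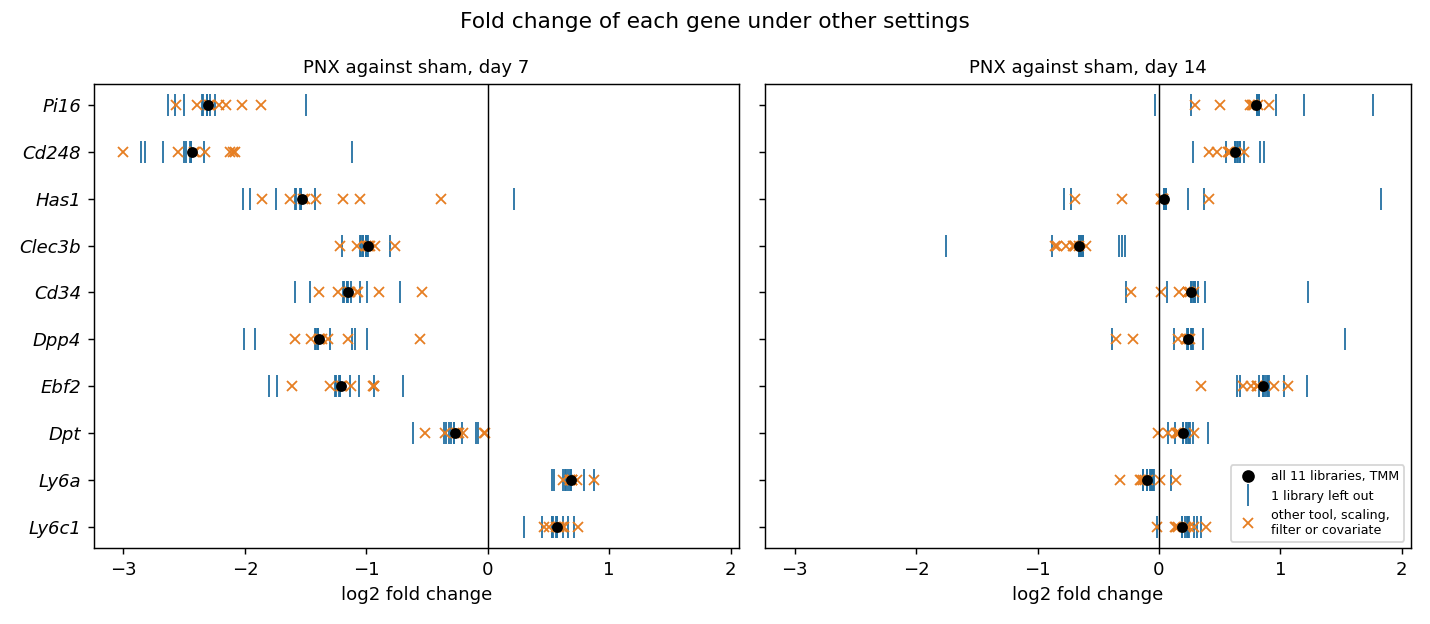
Log2 fold change of PNX over sham for each of the 10 genes under the main setting and each alternative, at day 7 and at day 14. At day 7 Pi16 runs from -2.63 to -1.50 and Cd248 from -3.00 to -1.12, and Has1 alone crosses 0, while at day 14 the values of Cd248, Clec3b and Ebf2 stay on 1 side of 0 and those of the other 7 genes do not.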

How the data were processed

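The authors deposited whole read counts per gene symbol, unscaled, with 1 column for each of 11 libraries. Per the labels' protocols, RNA was extracted with an RNeasy Micro Kit and libraries were made with a low-input NEBNext kit. The submitters' processing notes name mm10 and bcl2fastq 2.20.0.422. The aligner, counter, annotation and strand setting are not given in the sources used here.

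The tests used edgeR 4.0.16 (R 4.3.3). Low counts were filtered with filterByExpr, which dropped 8400 symbols. After TMM scaling, a quasi-likelihood model with robust estimation was fitted to the 4 groups, with 7 residual degrees of freedom. The standard error is the absolute log2 fold change divided by the square root of F. Benjamini-Hochberg adjustment covered the 16011 genes tested, at a threshold of 0.05. Steps were tested on simulated data, where the day 7 test recovered 4% of planted 2-fold changes and 65% of planted 4-fold changes. A gene that did not pass can therefore still have changed. No libraries were near-identical (chi-square per degree of freedom 11.6 to 79.8). The main model did not pair libraries by replicate number.

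All 10 genes were named in every comparison. Of each list, up to 4 genes of smallest p at each day could be named, with 5 relatives of highest level and the 8 genes nearest to Pi16. Members and lists were chosen with earlier results of these data known. Alternatives were DESeq2 1.42.0, RLE factors, total counts, no filter, only the groups compared, a replicate block, a covariate for the receptor background, leaving out the 3 libraries where it was highest, and leaving out each library.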

Additional observations from a re-analysis of the deposited data

How the results depend on the processing

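Of the log2 fold changes of the 10 genes under the alternatives, 1063 kept their direction and call, 14 passed the threshold only under an alternative and 43 turned direction. None of the 10 genes lost a call, since none had one. Counts of all genes that passed are in either direction, and DESeq2 fitted 23040 genes. Each group had 2 or 3 libraries, and the cause of each change below was not tested. Without TMM factors, scaling by total counts alone shifted the all-gene median by 0.18 at day 7, -0.19 at day 14, -0.37 in the interaction and -0.29 between days after PNX. No values were given for the mean of days and the interaction with only the groups compared, since they use all 4 groups.

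Of the 10 genes, 2 passed at day 7 with DESeq2 and with no filter on low counts, against 0 in the main setting; 2 passed in the interaction with DESeq2; 2 passed between days after sham with DESeq2 and 1 with no filter. Leaving out each library gave 0 to 2 at day 7, 0 to 1 in the mean of days and 0 to 2 between days after sham.

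Of all genes, 6 passed at day 7, against 434 with DESeq2, 12 with total counts, 178 with no filter, 2 with the background covariate, 22 without the 3 libraries of highest background and 3 to 425 leaving out each library. At day 14, 1 passed, against 108 with DESeq2, 2 with RLE factors, 3 with total counts, 27 with no filter, 52 with only the groups compared, 0 with the replicate block, 35 with the covariate, 23 without the 3 libraries and 0 to 74 leaving out each. In the mean of days 31 passed, against 295 with DESeq2, 50 with total counts, 102 with no filter, 20 with the replicate block, 77 with the covariate, 98 without the 3 libraries and 8 to 192 leaving out each. In the interaction 0 passed, against 93 with DESeq2, 1 with total counts, 8 with no filter, 1 with the block, 3 without the 3 libraries and 0 to 370 leaving out each. Between days after PNX 0 passed, against 63 with DESeq2, 8 with no filter, 83 with only the groups compared, 1 with the block and 0 to 2 leaving out each. Between days after sham 3 passed, against 641 with DESeq2, 0 with total counts, 102 with no filter, 0 with only the groups compared, 1 with the block, 1 with the covariate, 16 without the 3 libraries and 1 to 958 leaving out each.

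Replicate numbers are shared by the groups, but of 15 pairs of libraries with the same number 2 correlated above 0.1 in their deviations from the group means (-0.48 to 0.56), and 3 of 11 libraries correlated best with their own number. Both pairs above 0.1 were PNX with sham at day 7, replicate 2 (0.56) and replicate 3 (0.241), while replicate 1 was at -0.135. These values do not settle whether libraries of day 7 were paired. The replicate block gave a median log2 fold change over the 10 genes of -1.01 at day 7, against -1.18 without it, and changed no call among them.

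Values that turned direction were these log2 fold changes. At day 14 they were -0.016 for Ly6c1 and -0.01 for Dpt with total counts, 0.012 for Ly6a with no filter, -0.22 for Dpp4 and -0.30 for Has1 with the replicate block, and -0.35 for Dpp4, 0.14 for Ly6a, -0.23 for Cd34 and -0.69 for Has1 without the 3 libraries of highest background. In the mean of days they were 0.025 for Dpt and 0.013 for Has1 with the background covariate. The interaction of Clec3b was -0.002 with total counts. Between days after PNX they were -0.079 for Dpp4 with the covariate and 0.099 for Cd248 without the 3 libraries, and between days after sham -0.039 for Dpt without the 3 libraries.

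Leaving out each library in turn gave ranges across 0 for these genes. At day 7 Has1 ran from -2.01 without sham replicate 2 to 0.22 without sham replicate 3. At day 14 Pi16 ran from -0.035 to 1.77, Has1 from -0.78 to 1.83, Ly6c1 from -0.015 to 0.34, Dpp4 from -0.39 to 1.53, Ly6a from -0.13 to 0.099 and Cd34 from -0.27 to 1.23. In the mean of days Dpt ran from -0.18 to 0.057, Ebf2 from -0.46 to 0.083, Has1 from -1.16 to 0.13, Dpp4 from -0.89 to 0.056 and Cd34 from -0.71 to 0.017. In the interaction Has1 ran from -0.18 to 3.42 and Clec3b from -0.75 to 0.77. Between days after PNX Ly6c1 ran from -0.37 to 0.098, Cd248 from -0.46 to 0.12, Pi16 from -0.40 to 0.83, Has1 from -0.40 to 0.76 and Clec3b from -1.44 to 0.014. Between days after sham Dpt ran from -0.12 to 0.45 and Has1 from -2.99 to 0.60.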
